A study of Homo sapiens with 6 samples.

Results

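H1 cells, an established human embryonic stem cell line, were compared between the wild-type line and a line homozygous for the S1344L change in DICER1, with 2 RNA-seq samples of each genotype, 4 of the 6 samples of the study. The remaining 2 samples, hemizygous for the same change, entered the statistical fit and are otherwise given only beside the others, since a comparison with them would share the wild-type samples. S1344L is a cancer hotspot change, and both edited genotypes were made with CRISPR-Cas9, per the study's design text. No treatment or time course is named in the labels, and the labels name no clone number, passage or culture for any sample. P-values therefore measure the spread between these particular samples, which may be technical. The comparison asked which of the 16199 genes in the table differed between the genotypes, and it was made both with and without pairing the samples by their replicate number.

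DICER1 encodes the ribonuclease that cuts hairpin precursors into mature microRNAs. One of its catalytic domains makes the cut that frees microRNAs of the 5p arm of the hairpin and the other frees those of the 3p arm, and hotspot changes of DICER1 in tumours weaken the production of 5p microRNAs. Human embryonic stem cells express large amounts of the miR-302 and miR-371 clusters, depend on FGF and Nodal or activin signals, and express LIN28A, which holds back let-7 maturation.

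Levels are given in CPM, counts scaled to library size and composition, and differences as log2 fold changes, homozygous minus wild type. The listed counts summed to between 38164848 and 52924532 per library. Markers of stem cells, POU5F1, SOX2, NANOG, LIN28A, DNMT3B and TDGF1, were all measured, at 87.9 to 2473 CPM over the 4 libraries. Wild type 1 stood apart: the first principal component of the 4 libraries, with 57.6% of the variance, placed it at -41.4 and the others between 0.293 and 25.4. The second component, with 25.0%, placed homozygous 1 at 28.1 and the others below 0. Between wild type 1 and 2, 824 genes (5.09%) differed 2-fold or more, against 318 genes (1.96%) between homozygous 1 and 2. The libraries did not pair off by genotype: the chi-square per degree of freedom over genes was lowest, 23.2, between wild type 2 and homozygous 2, against 60.3 between the wild-type and 41.7 between the homozygous libraries. Results that rest on wild type 1 are therefore given also without it. Those values come from an edgeR fit without pairing, in which wild type 2 alone stands for the wild type.

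Very few genes separated the genotypes by a margin that a test with 2 samples per group could call. Without pairing, edgeR called 0 of 16199 genes (0.0% called), with a lowest adjusted p of 1.000, and limma-voom called 0. At an unadjusted p under 0.05 edgeR listed 192 genes higher (1.19%) and 243 lower (1.5%), and DESeq2 without pairing called 10 genes (0.0617%), 5 higher (0.0309%) and 5 lower (0.0309%). With pairing, edgeR again called 0 genes (0.0%), with a lowest adjusted p of 0.120, while the genes at an unadjusted p under 0.05 increased to 844 higher (5.21%) and 1098 lower (6.78%). DESeq2 with pairing called 126 of the 13686 genes to which it gave an adjusted p (0.921%), 47 of them higher (0.343%) and 79 lower (0.577%). The edgeR fit with the same pairing on the same 6 libraries made none of these 126 calls. Of the 10 genes DESeq2 called without pairing, 7 were also called with it. An edgeR fit of the 4 libraries alone with pairing, added after the data were seen, called 4 of 16198 genes (0.0247%): DPPA5 higher and HTR7, LEFTY1 and ZNF560 lower. The words rose and fell are kept for genes called by a named fit at an adjusted p under 0.05, over all genes tested. Log2 fold changes and their SEs (±) are from the edgeR fit without pairing, unless given as those of the paired DESeq2 fit. The edgeR SEs therefore do not belong to DESeq2 adjusted p-values printed beside them.

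The pairs differed from each other in most genes. Pair 1 is homozygous 1 minus wild type 1 and pair 2 is homozygous 2 minus wild type 2. Across 16199 genes, which are not independent replicates, the log2 differences of the pairs had a Pearson correlation of 0.179 and a Spearman correlation of 0.169. They had the same direction in 55.7% of genes. Differences of 2-fold or more in both pairs were found for 20 genes higher (0.123%) and 21 lower (0.13%), and 14 genes (0.0864%) differed 2-fold or more in opposite directions. Counting each pair by itself, pair 1 had 1.94% higher and 1.91% lower, and pair 2 had 0.784% and 0.451%. The spread of the differences was wider in pair 1 (SD 0.444) than in pair 2 (SD 0.324). The 126 genes of the paired DESeq2 fit had the same direction in both pairs and in the edgeR fit without wild type 1, and since the calls used these same pairs this is a description. In 106 of the 126 genes the homozygous and wild-type libraries did not overlap, which was the case for 27.9% of all genes. For 53 of the 126 the unpaired edgeR log2 fold change shrank more than 1.5 times when wild type 1 was left out. That fit does not take account of replicate number, as the calls did.

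**Figure D1:**
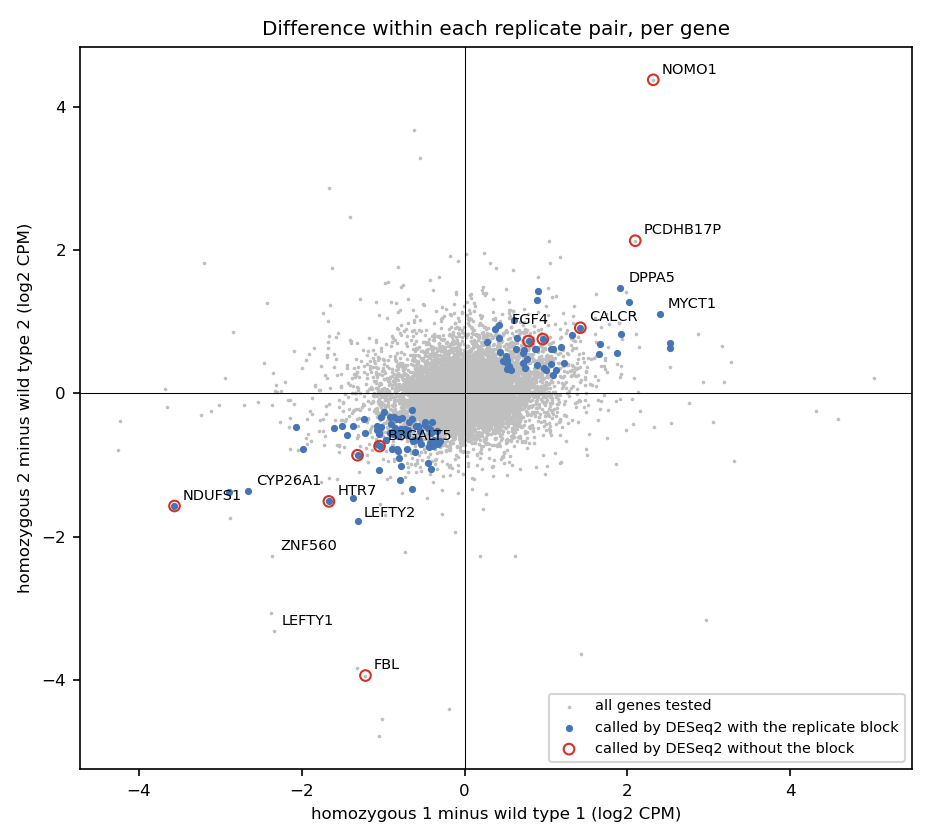
Log2 CPM differences of pair 1 (x axis) and pair 2 (y axis) for each gene, grey for all genes tested, blue for genes called by DESeq2 with pairing and red rings for those called without pairing. Called genes lie in the lower left and upper right, while the grey cloud shows little relation between the pairs (Pearson correlation 0.179).

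HTR7, a serotonin receptor gene that raises cyclic AMP, fell in DESeq2 fits with and without pairing. Its level was 25.5 and 25.6 CPM in wild type 1 and 2 and 8.02 and 8.99 CPM in homozygous 1 and 2, so that the libraries of each genotype lay close together and far from those of the other. The fall was 3.01-fold (log2 fold change -1.59 ± 0.22, SE; DESeq2 adjusted p = 3.01e-06 without pairing and 4.84e-12 with pairing), and it was -1.58 without wild type 1. HTR7 lies on chromosome 10, 90740823 to 90857698 (GRCh38, GENCODE 29, as for all positions given). In the hemizygous libraries it was at 9.26 and 13.5 CPM.

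FGF4, the autocrine growth factor of pluripotent cells, rose from 17.5 and 17.01 CPM in the wild-type libraries to 30.2 and 28.3 CPM in the homozygous libraries. This was 1.69-fold (log2 fold change 0.76 ± 0.13; DESeq2 adjusted p = 0.0178 without and 0.000748 with pairing). CALCR, the calcitonin receptor, rose from 3.72 and 5.04 to 10.05 and 9.55 CPM (log2 fold change 1.16 ± 0.24; DESeq2 adjusted p = 0.0398 and 0.000991). ZNF600, a zinc-finger gene of chromosome 19, rose from 26.7 and 24.9 to 52.1 and 42.2 CPM (log2 fold change 0.87 ± 0.15; DESeq2 adjusted p = 0.0161 and 2.19e-05). For each of these 3 genes both homozygous libraries were above both wild-type libraries, as for 14.2% of all genes, and leaving out wild type 1 gave log2 fold changes of 0.79, 0.97 and 0.92. PCDHB17P, a pseudogene of the protocadherin beta cluster, was at 0.424 and 0.409 CPM in wild type and 1.96 and 1.94 CPM in homozygous libraries and was called without pairing (DESeq2 adjusted p = 0.0242), but the paired fit gave it no adjusted p. The positions are chromosome 11, 69771016 to 69775403 for FGF4, chromosome 7, 93424487 to 93574730 for CALCR and chromosome 19, 52749942 to 52786807 for ZNF600.

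B3GALT5, which adds galactose in the synthesis of globo-series glycolipids such as the stem cell antigen SSEA-3, fell. Its level was 129.5 and 109 CPM in wild type and 62.8 and 65.5 CPM in homozygous libraries, a 1.86-fold difference (log2 fold change -0.90 ± 0.18; DESeq2 adjusted p = 0.0315 without and 9.62e-07 with pairing). B3GALT5-AS1, which overlaps it on the opposite strand, was at 38.1 and 34.00 against 23.3 and 22.7 CPM and fell by the paired fit (DESeq2 adjusted p = 0.0103). The library kit does not mark strand, so reads of these overlapping genes cannot be told apart. Over the 16 glycosphingolipid enzymes 12 were lower and the median log2 fold change was -0.13, against -0.0034 over all genes tested, of which 49.3% were higher. B3GNT5, which starts lacto-series chains, was at 31.8 and 29.4 against 22.03 and 22.3 CPM, and ST6GALNAC4, a sialyltransferase, at 17.6 and 17.9 against 13.6 and 13.6 CPM. B3GALT5 lies on chromosome 21, 39556442 to 39673137. Neither B3GNT5 nor ST6GALNAC4 passed an adjusted threshold (paired DESeq2 adjusted p = 0.125 and 0.423).

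Of the other 4 genes called by DESeq2 without pairing, 3 varied widely within a genotype. NOMO1, which has near-identical copies, was at 1.003 and 0.563 CPM in wild type and 5.18 and 12.6 CPM in homozygous libraries. FBL, the rRNA methyltransferase fibrillarin, was at 3.18 and 20.6 against 1.34 and 1.30 CPM, and the complex I subunit NDUFS1 at 10.6 and 2.43 against 0.859 and 0.788 CPM. With pairing DESeq2 gave adjusted p-values of 0.166 for NOMO1, 0.279 for FBL and 1.79e-05 for NDUFS1. The edgeR log2 fold change of NDUFS1, -2.99 ± 0.67 without pairing, was -1.55 without wild type 1. NDUFS1 overlaps EEF1B2 on the opposite strand, and EEF1B2, an elongation factor gene, was at 4.69 and 65.03 against 2.25 and 2.31 CPM. In FBL and EEF1B2 the high value was that of wild type 2 alone, and in NDUFS1 that of wild type 1. The counting tool is not named, so how reads of these genes were assigned could not be checked. The remaining gene, ENSG00000253507, listed without a symbol, was at 205 and 231 against 82.5 and 127 CPM and was also called with pairing (DESeq2 adjusted p = 1.18e-08).

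DPPA5 and ZNF560 were called by paired fits. DPPA5, a marker of pluripotent and germ cells, was at 3.24 and 8.03 CPM in wild type 1 and 2 and 12.3 and 22.4 CPM in homozygous 1 and 2. The second library was the higher in each genotype, and both homozygous libraries were above both wild-type ones. DPPA5 rose by the paired DESeq2 fit (log2 fold change 1.69 ± 0.21, adjusted p = 9.69e-12) and by edgeR on 4 libraries with pairing (adjusted p = 0.0430), but not without pairing (DESeq2 adjusted p = 0.652). ZNF560, a zinc-finger gene on chromosome 19, was at 19.2 and 18.1 CPM in wild type and 3.68 and 3.69 CPM in homozygous libraries, a 5.05-fold difference. It fell by edgeR on 4 libraries with pairing (adjusted p = 0.00810), but fits of all 6 libraries did not call it (paired DESeq2 adjusted p = 0.694). The hemizygous libraries were at 0.730 and 21.9 CPM, further apart from each other than the genotypes compared here.

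LEFTY1 and LEFTY2, neighbouring genes on chromosome 1 that encode secreted inhibitors of Nodal, were lower in homozygous libraries. LEFTY1 was at 11.9 and 9.01 CPM in wild type 1 and 2 and 2.31 and 0.862 CPM in homozygous 1 and 2, a 6.59-fold difference with no overlap, as for 13.6% of all genes. It fell by edgeR on 4 libraries with pairing (adjusted p = 0.0277) and missed the threshold in the paired DESeq2 fit (adjusted p = 0.0779). LEFTY2 was at 14.6 and 5.63 against 5.62 and 2.02 CPM and fell by the paired DESeq2 fit (log2 fold change -1.43 ± 0.26, adjusted p = 3.63e-05). Wild type 2 and homozygous 1 had nearly the same LEFTY2 level, and the log2 fold change without wild type 1 was -0.55, against -1.40 ± 0.72 with it. Both of these values are unpaired, and the log2 differences of LEFTY2 were -1.37 in pair 1 and -1.46 in pair 2. The coding sequences of both genes are closely alike, so their reads may be split between them. NODAL itself was at 53.8 and 14.4 against 39.7 and 24.3 CPM, and SKIL, which represses SMAD signalling, rose by the paired DESeq2 fit, from 272 and 147 to 353 and 275 CPM (adjusted p = 0.00518). Without wild type 1 the log2 fold change of SKIL was 1.102, against 0.58 ± 0.30 with it. The genes lie on chromosome 1, 225886282 to 225911382 and 225936598 to 225941489. In all, 13 of 27 genes of Nodal, activin and BMP signalling were higher and 14 lower, with a median log2 fold change of -0.03.

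Both LEFTY genes are literature targets of the miR-302 family. Each has a match to the miR-302a-3p seed in its longest annotated 3′ UTR (GENCODE 29), at position 248 of 445 nt in LEFTY1 and 171 of 843 nt in LEFTY2. The sites are shown beside the microRNA, with the seed (bases 2 to 8) and its match in capitals.
hsa-miR-302a-3p: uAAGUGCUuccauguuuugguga
LEFTY1: cactatattctaAGCACTTaca
LEFTY2: tcacccatcctaAGCACTTacg
The sites share the same 7 bases of match. Of the 27 measured literature targets of that family, 20 were lower and 7 higher, with a median log2 fold change of -0.15 (-0.07 without wild type 1). LEFTY2 was the member called by the paired DESeq2 fit. CDKN1A, a cell cycle inhibitor among these targets, was at 112 and 44.6 CPM in wild type and 32.8 and 46.2 CPM in homozygous libraries, with wild type 1 alone high.

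**Figure D2:**
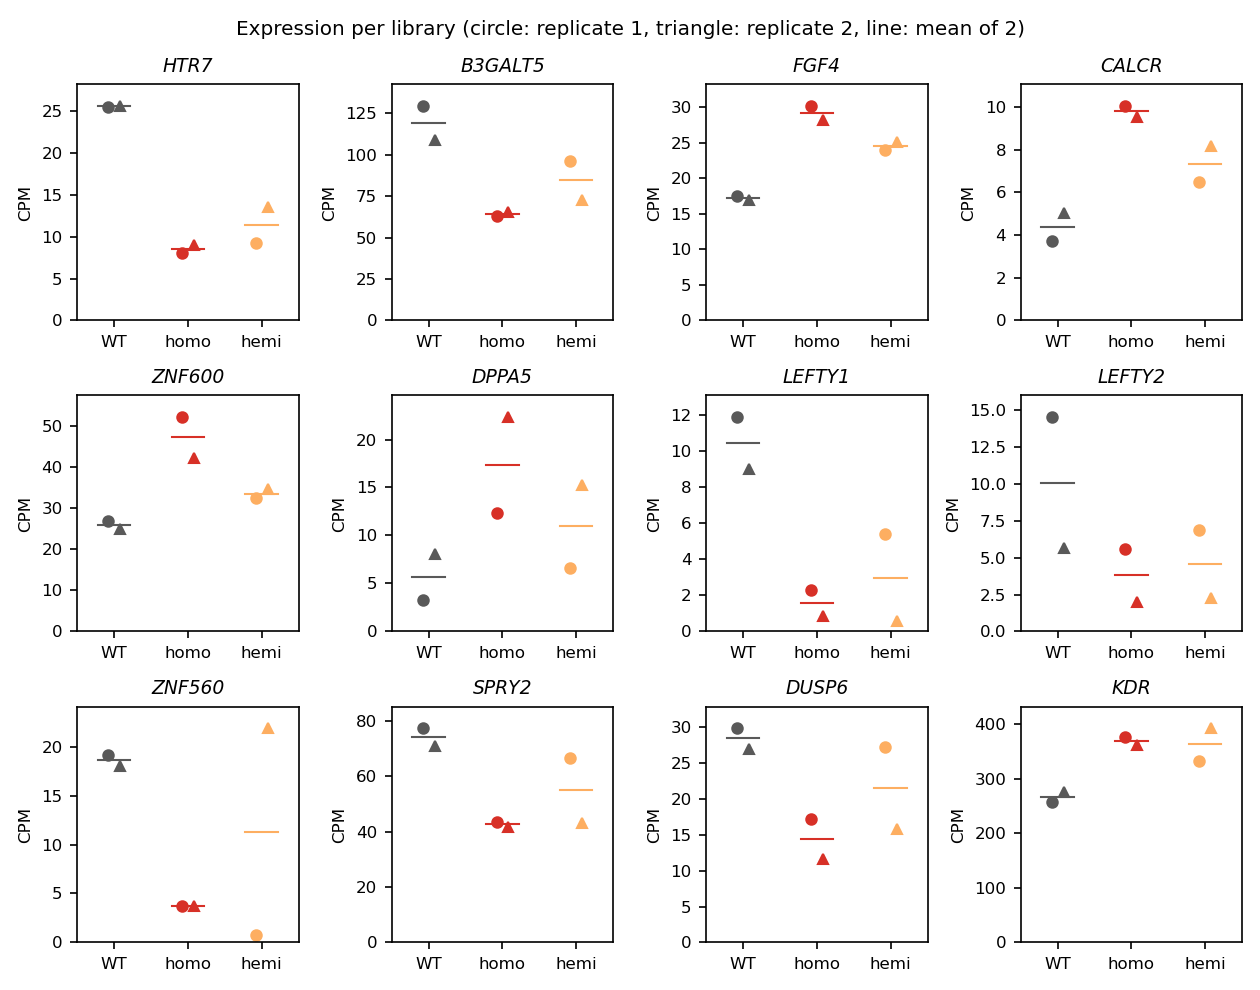
CPM of 12 genes in each library of wild type (WT), homozygous (homo) and hemizygous (hemi) cells, with circles for replicate 1, triangles for replicate 2 and lines for the mean of 2. Wild-type and homozygous libraries of HTR7, FGF4 and SPRY2 form tight, separate groups, while DPPA5 and LEFTY2 differ between replicate numbers within each genotype.

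Feedback genes of FGF and ERK signalling fell by the paired DESeq2 fit while FGF4 rose. Of 24 measured genes of the pathway, 5 fell and 1 rose, against 0.577% and 0.343% of all genes. This list and the others were chosen with earlier results of these data known, so their shares beside those of all genes are a description. SPRY2, a Sprouty inhibitor of receptor tyrosine kinase signalling, was at 77.5 and 71.1 CPM in wild type and 43.6 and 41.6 CPM in homozygous libraries and fell by the paired DESeq2 fit (1.74-fold; log2 fold change -0.80 ± 0.16, adjusted p = 0.000329). SPRY4 was at 292 and 265 against 189 and 169 CPM (paired DESeq2 adjusted p = 0.00437) and SPRY1 at 97.3 and 88.8 against 54.9 and 69.3 CPM (adjusted p = 0.0272). All 3 Sprouty genes had both homozygous libraries below both wild-type ones, as did 13.6% of all genes.

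DUSP6, the phosphatase that inactivates ERK, was at 29.9 and 27.02 against 17.2 and 11.7 CPM and fell 1.97-fold (paired DESeq2 log2 fold change -1.01 ± 0.19, adjusted p = 6.77e-05). ETV4, an ETS transcription factor induced by FGF, was at 191 and 254 against 155 and 160.1 CPM and fell (paired DESeq2 adjusted p = 0.0260). Its relative ETV5 was at 52.5 and 64.7 against 39.3 and 45.8 CPM and missed the threshold (adjusted p = 0.0949). Leaving out wild type 1 gave log2 fold changes of -0.73 for SPRY2, -0.56 for SPRY4, -0.51 for SPRY1, -0.90 for DUSP6, -0.68 for ETV4 and -0.60 for ETV5. None of them was called without pairing (DESeq2 adjusted p = 0.480 for SPRY2 and 0.652 for DUSP6).

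Over the whole list the direction was mixed. Of the 24 genes 9 were higher and 15 lower, with a median log2 fold change of -0.09, of -0.11 in pair 1 and of -0.22 in pair 2. At an unadjusted edgeR p under 0.05, 1 member was higher and 7 were lower without pairing, against 1.19% and 1.5% of all genes. The receptors FGFR1, FGFR2, FGFR3 and FGFR4 had log2 fold changes of -0.26 ± 0.22, 0.22 ± 0.13, -0.35 ± 0.15 and 0.04 ± 0.13. FGF2, the ligand supplied in most stem cell media, was at 366 and 257 against 314 and 419 CPM, overlapping between genotypes. EGR1, an immediate early gene induced by ERK, was at 2.02 and 3.97 CPM in wild type and at 17.1 and 3.003 CPM in homozygous 1 and 2, high in homozygous 1 alone. In the hemizygous libraries SPRY2 was at 66.8 and 43.1 CPM and DUSP6 at 27.3 and 15.8 CPM.

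Metallothioneins, small cysteine-rich proteins that bind zinc and copper and are induced by metals through the factor MTF1, were higher in homozygous cells in both pairs. All 10 measured genes of the list, the zinc exporter gene SLC30A1 among them, were higher in pair 1 and in pair 2. Their summed level was 283 and 499 CPM in wild type 1 and 2 and 582 and 657 CPM in homozygous 1 and 2. The median log2 fold change was 0.65, and the medians of the pairs were 1.06 and 0.43. It was 0.26 without wild type 1, the library with the lowest level of each metallothionein. By the paired DESeq2 fit MT1E, MT1G, MT1H, MT1M and MT1X rose, and without pairing 0 of the 10 did. Members of this family are alike in sequence, so reads may be shared between them.

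MT1H had the lowest adjusted p of the list, at 19.96 and 41.4 CPM in wild type and 63.1 and 66.7 CPM in homozygous libraries (paired DESeq2 log2 fold change 1.18 ± 0.19, adjusted p = 2.48e-06). MT1G was at 69.8 and 148 against 163 and 198 CPM (adjusted p = 0.000400), and MT2A at 30.7 and 56.3 against 77.9 and 69.3 CPM (adjusted p = 0.542). Without wild type 1 the edgeR log2 fold changes were 0.66 for MT1H and 0.30 for MT1G, against 1.08 ± 0.39 and 0.73 ± 0.42 with it. In MT1E, at 35.8 and 82.2 against 78.2 and 103 CPM, wild type 2 was above homozygous 1. The hemizygous libraries had 35.4 and 62.95 CPM of MT1H, again low in library 1 and high in library 2.

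The metallothionein genes lie together on chromosome 16 and share a promoter element, for which the MT1H promoter is shown. It is the 250 bases before the start of MT1H on the plus strand (chr16:56669564-56669813, from RefSeq, GRCh38.p14), with each match to the metal response element core, TGCACNC or TGCGCNC on either strand, in capitals.
MT1H: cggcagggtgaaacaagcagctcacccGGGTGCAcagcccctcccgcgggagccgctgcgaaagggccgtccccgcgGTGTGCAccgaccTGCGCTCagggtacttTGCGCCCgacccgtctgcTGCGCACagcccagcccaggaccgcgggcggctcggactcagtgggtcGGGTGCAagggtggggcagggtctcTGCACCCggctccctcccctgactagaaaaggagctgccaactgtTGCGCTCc
This window held 8 matches, some of which can overlap. The same window held 7 in MT2A, 4 in MT1X and 1 in SLC30A1, the 4 members of the list with a RefSeq promoter at hand. Of 35116 promoters 24.8% held at least 1 match and 0.370% held 4 or more. A match is a description of the letters and not a measured site.

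Enzymes of cholesterol and fatty acid synthesis, which sterol-sensing SREBP factors induce together, were mostly lower in both pairs, by amounts that shrank when wild type 1 was left out. Of 25 cholesterol genes 23 were lower, 19 in both pairs, with a median log2 fold change of -0.28 that was -0.05 without wild type 1. All 13 fatty acid genes were lower, 12 in both pairs, with a median of -0.38 that was -0.01 without wild type 1. HMGCS1, which makes the precursor of mevalonate, was at 693 and 357 CPM in wild type 1 and 2 and 396 and 278 CPM in homozygous 1 and 2. Library 1 was the higher in each genotype, and homozygous 1 was above wild type 2.

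By the paired DESeq2 fit HMGCS1 fell (adjusted p = 0.0152), as did MSMO1, a later enzyme of the pathway, from 279 and 142 to 140.3 and 118 CPM (adjusted p = 0.0327). Without pairing DESeq2 called neither, and without wild type 1 their edgeR log2 fold changes were -0.08 and -0.13. Of the fatty acid genes FASN, the fatty acid synthase, was at 1525 and 1147 against 1213 and 705 CPM, and FADS2, a fatty acid desaturase, at 526 and 386 against 385 and 277 CPM. ACSS2, which makes acetyl-CoA from acetate, was at 62.5 and 38.8 against 26.5 and 30.4 CPM. All 3 fell by the paired DESeq2 fit (adjusted p = 0.0144, 0.00785 and 0.0103), with edgeR log2 fold changes without wild type 1 of -0.25, -0.22 and -0.44. In pair 2, which does not contain wild type 1, the medians were -0.18 for the cholesterol and -0.26 for the fatty acid list.

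**Figure D3:**
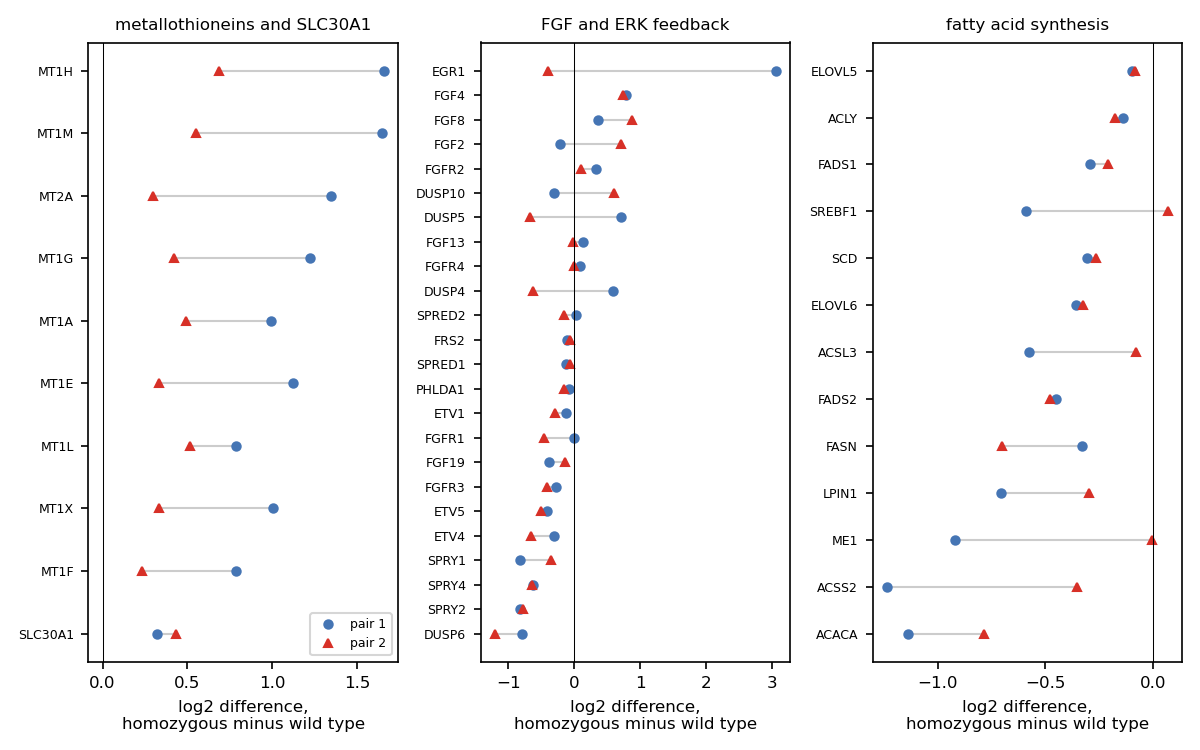
Log2 CPM difference of each member in pair 1 (circles) and pair 2 (triangles) for 3 gene lists, joined by grey lines, with positive values higher in homozygous cells. Metallothioneins lie right of 0 in both pairs, most fatty acid synthesis genes lie left of 0, and SPRY1, SPRY2, SPRY4, DUSP6, ETV4 and ETV5 lie left of 0 with FGF4 on the right.

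The core pluripotency factors POU5F1, SOX2 and NANOG were not called in the fits above. POU5F1 was at 87.9 and 88.00 CPM in wild type and 107 and 129 CPM in homozygous libraries, with no overlap (log2 fold change 0.42 ± 0.22; paired DESeq2 adjusted p = 0.207). SOX2 was at 341 and 378 against 374 and 412 CPM, NANOG at 198 and 143 against 158 and 185 CPM and LIN28A at 1627 and 2121 against 2473 and 2006 CPM, and in each of the 3 the libraries of the genotypes overlapped. ESRG, a long noncoding RNA of human pluripotent cells, was at 2142 and 2332 against 3028 and 2725 CPM, and UTF1 at 44.6 and 66.6 against 90.00 and 78.9 CPM (paired DESeq2 adjusted p = 0.0979 and 0.102). Over the 24 genes of the list 14 were higher, with a median of 0.08. Of 10 naive pluripotency genes 6 were higher, with FGF4 and DPPA5 as the members that rose by the paired DESeq2 fit. Their median was -0.09 in pair 1 and 0.50 in pair 2. TBX3, at 9.93 and 2.69 against 10.05 and 10.5 CPM, was low in wild type 2 alone.

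Of the lineage markers, a few single genes rose by the paired DESeq2 fit and 1, GABRP of the trophoblast and amnion list, fell. All 3 measured genes of that list, of 11 listed, were lower in both pairs (median -0.23). KDR, the VEGF receptor of early mesoderm, rose from 257 and 276 to 376 and 361 CPM (adjusted p = 0.0142). All 6 measured mesoderm markers of 11 listed were higher (median 0.52), with a summed level of 265 and 285 CPM in wild type 1 and 2 and 388 and 374 CPM in homozygous 1 and 2, nearly all of it KDR. HOXB1, a homeobox gene among them, was at 0.945 and 0.998 against 2.11 and 2.63 CPM. FABP7, a fatty acid binding protein of neural progenitors, rose from 2.99 and 2.99 to 5.62 and 8.15 CPM (adjusted p = 0.0105), and ZIC1, a zinc-finger factor of the neural plate, from 17.9 and 16.3 to 28.2 and 28.01 CPM (adjusted p = 0.0144). GAP43, a growth cone protein, rose from 31.97 and 24.1 to 42.7 and 46.6 CPM (adjusted p = 0.00614).

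The neural marker lists as wholes were divided. Of 5 measured neural ectoderm markers 2 were higher and 3 lower (median -0.16), and of 12 neuron markers 6 were higher and 6 lower. FEZF1, a neural ectoderm marker among the lower ones, was at 32.1 and 33.0 against 25.1 and 26.4 CPM (paired DESeq2 adjusted p = 0.369). All 8 fibroblast and mesenchyme markers of 13 listed were lower (median -0.38, and -0.01 without wild type 1), with a summed level of 1311 and 1021 CPM in wild type 1 and 2 and 858 and 911 CPM in homozygous 1 and 2. TAGLN, an actin-binding protein of that list, was at 187 and 63.1 against 74.5 and 59.7 CPM, with wild type 1 alone high. Primitive streak and definitive endoderm markers were represented by 2 measured genes each, with summed levels of 1.84 to 10.4 CPM in every library. Every gene in the table was above 0.5 CPM in at least 3 of the 6 libraries, so markers near 0 are not analysed here. Whether other cell types took part in these differences was not tested, and fewer cells of a type and less RNA per cell cannot be told apart in these bulk samples.

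DICER1 (GRCh38 chromosome 14, 95086228 to 95158010) was at 169 and 126 CPM in wild type 1 and 2 and 129 and 118 CPM in homozygous 1 and 2. The genotypes overlapped, and the log2 fold change of -0.26 ± 0.19 was -0.02 without wild type 1. Both of these values are unpaired, and the log2 differences of DICER1 were -0.39 in pair 1 and -0.10 in pair 2. It was not called with pairing (DESeq2 adjusted p = 0.520). The hemizygous libraries were at 118 and 96.4 CPM. Counts per gene cannot show the base change itself, so the genotype labels could not be checked against it. Of 20 genes of microRNA processing and function 10 were higher and 10 lower, and 0 were called (median 0.01). In both pairs 5 of them were higher and 7 lower. With pairing, edgeR listed 0 of the 20 higher and 2 lower at an unadjusted p under 0.05, against 5.21% and 6.78% of all genes. Among members of the list with a higher homozygous mean, AGO1 was at 170.2 and 151 against 222 and 162 CPM. TARBP2, a DICER1 partner, was at 36.7 and 41.01 against 42.1 and 46.7 CPM, and TNRC6B, a silencing effector, at 63.7 and 86.5 against 96.8 and 84.1 CPM. Among 18 microRNA host transcripts 7 were higher and 11 lower. MIR4458HG was at 3.70 and 3.48 against 0.463 and 1.01 CPM, a 4.88-fold difference that DESeq2 did not call without pairing (adjusted p = 0.0619). LARP7, which overlaps the miR-302 host gene on the opposite strand, was at 56.4 and 62.3 against 77.6 and 86.2 CPM (paired DESeq2 adjusted p = 0.0687).

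No mature microRNA was measured, so the targets of both hairpin arms were compared through seed matches in 3′ UTRs. Sequences are printed for the stem cell clusters, with both arms of their hairpins, and for miR-367, miR-17 and let-7, with the seed in capitals.
hsa-miR-302a-5p: aCUUAAACguggauguacuugcu
hsa-miR-302a-3p: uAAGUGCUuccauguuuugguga
hsa-miR-372-3p: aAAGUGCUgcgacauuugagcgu
hsa-miR-371a-5p: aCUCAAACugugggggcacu
hsa-miR-371a-3p: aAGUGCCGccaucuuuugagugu
hsa-miR-367-3p: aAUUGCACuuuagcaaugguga
hsa-miR-17-5p: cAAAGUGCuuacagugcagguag
hsa-let-7a-5p: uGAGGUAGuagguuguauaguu
miR-302a-3p and miR-372-3p share 1 seed, while miR-302a-5p and miR-371a-5p, of the 5p arm, have other seeds (sequences from RefSeq). Of 76 microRNAs sought, 71 had a sequence, and they fell into 66 seed families, of which 36 were 5p and 30 were 3p. Over 13196 genes with a 3′ UTR of at least 30 nt, genes with a seed match had a median log2 fold change below that of genes without one, by a median of -0.04 over the 5p families and -0.04 over the 3p families. UTR length moved with that difference, and longer UTRs hold more matches. The median log2 fold change was 0.04, -0.01, -0.04 and -0.07 from the shortest to the longest of 4 equal bins of UTR length. Without wild type 1 the bins lay between 0.0077 and 0.0159.

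Within these bins of UTR length the differences were close to 0 for both arms. The median over families was -0.0029 for the 5p arm (range -0.0334 to 0.0253) and -0.0041 for the 3p arm (range -0.0320 to 0.0388). The value was -0.001 for the miR-302a-3p family, 0.005 for miR-302a-5p, 0.002 for let-7a-5p, 0.005 for miR-17-5p and 0.007 for miR-367-3p. Of the 66 families 48 had opposite signs in pair 1 and pair 2, and no difference in either pair exceeded 0.108. In part the signs followed the letters of the site. That of miR-423-5p (GCCCCTC), rich in G and C, had 0.088 in pair 1 and -0.064 in pair 2. That of miR-340-5p (CTTTATA), rich in A and T, had -0.089 and 0.033, while that of miR-99b-5p (TACGGGT) was below 0 in both. Base composition was not taken into account, so families with alike sites are not separate observations. In pair 1 the median over families was -0.0201 for the 5p arm and 0.0016 for the 3p arm, and in pair 2 it was -0.0055 and -0.0106. The order of the arms thus differed between the pairs. The comparison covers all genes with a 7-base match and could miss changes confined to fewer targets. The arms also share sites, since that of miR-17-5p (GCACTTT) overlaps that of miR-302a-3p (AGCACTT) in sequence. As no mature microRNA was measured, families absent from these cells could be among those compared.

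**Figure D4:**
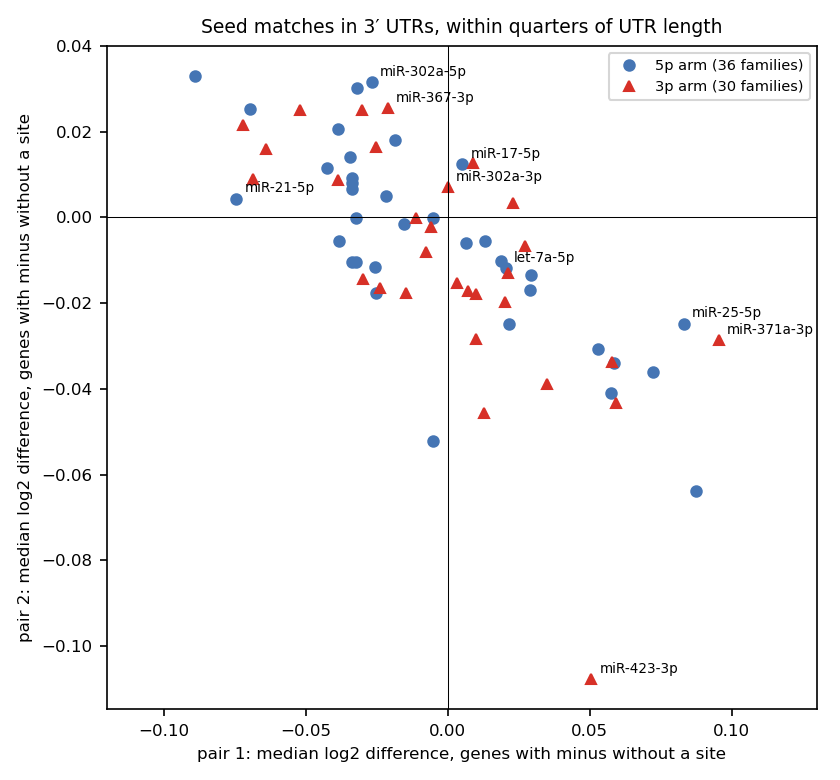
For each of 66 seed families, the median log2 difference of genes with a 3′ UTR seed match minus that of genes without one, within 4 bins of UTR length, in pair 1 (x axis) and pair 2 (y axis), with 5p families as circles and 3p families as triangles. Both arms have families on either side of 0, and 48 families lie in the quadrants where the pairs have opposite signs. Base composition of the sites was not taken into account.

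Among the larger gene classes, zinc-finger and ribosomal protein genes were mostly higher by small amounts. Of 463 genes named ZNF, 301 were higher (65.0%, against 49.3% of all genes), with a median of 0.06, of 0.12 in pair 1 and of 0.01 in pair 2. ZNF90 rose from 178 and 191 to 275 and 292 CPM (paired DESeq2 adjusted p = 7.72e-05), as did ZNF600. On chromosome 19, where many ZNF genes lie, the median over 1174 genes was 0.21 in pair 1 and -0.0060 in pair 2. Of 78 ribosomal protein genes 71 were higher, 62 in both pairs, with a median of 0.17 (0.10 without wild type 1), and 0 of them rose by the paired DESeq2 fit. RPL22L1, a paralog of RPL22 in that list, fell instead, from 86.9 and 65.01 to 37.4 and 44.4 CPM (paired DESeq2 adjusted p = 0.000326).

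Of 50 clustered protocadherins, adhesion genes of the nervous system, 22 were higher and 28 lower. At an unadjusted edgeR p under 0.05 without pairing 6 were higher and 1 lower, against 1.19% and 1.5% of all genes. This too is a description, as the list was chosen with earlier results known. PCDHGA6 rose from 2.55 and 3.53 to 6.41 and 6.23 CPM (paired DESeq2 adjusted p = 0.0292), and PCDHGB3 was at 1.08 and 1.36 against 2.80 and 2.93 CPM (adjusted p = 0.187). The gamma protocadherins share their last exons, so reads there cannot be told apart. PCDHGC3 of the same cluster was lower, at 18.7 and 17.7 against 14.7 and 11.004 CPM.

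Hypoxia and glycolysis genes were mostly higher in pair 1 and not in pair 2. Of 31 genes 28 had a positive log2 fold change, but the median was 0.50 in pair 1 and -0.08 in pair 2. BNIP3, which promotes mitophagy under low oxygen, had 60.8 and 90.3 CPM in wild type and 257 and 105 CPM in homozygous libraries, and SLC16A3, a lactate exporter, at 16.9 and 24.1 against 74.1 and 24.5 CPM, both high in homozygous 1 alone. ADM, the vasodilator peptide adrenomedullin that low oxygen induces, went the other way and fell by the paired DESeq2 fit, from 31.9 and 16.8 to 15.4 and 7.95 CPM (adjusted p = 2.46e-05). Its unpaired log2 fold change of -1.06 ± 0.55 was -0.51 without wild type 1, while the log2 differences were -1.04 in pair 1 and -1.07 in pair 2.

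Several signalling and adhesion genes fell by the paired DESeq2 fit. SFRP1, a secreted WNT antagonist, fell from 59.8 and 113 to 38.3 and 44.95 CPM (adjusted p = 1.76e-05), and PRICKLE1, a planar polarity gene, from 10.4 and 3.20 to 1.37 and 1.21 CPM (adjusted p = 1.41e-05). AXIN2, a WNT target, was at 29.7 and 33.5 against 46.3 and 38.8 CPM and did not pass (adjusted p = 0.205). CYP26A1, which degrades retinoic acid, fell from 9.41 and 2.10 to 1.45 and 0.788 CPM (adjusted p = 6.77e-05). In CYP26A1 and PRICKLE1 wild type 1 was far above wild type 2, and the log2 fold changes of -2.36 ± 0.88 and -2.41 ± 0.64 were -0.89 and -1.30 without it.

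CLDN4, a tight junction claudin, fell from 24.6 and 37.8 to 17.9 and 19.3 CPM (paired DESeq2 adjusted p = 0.00954), and 18 of 23 epithelial junction genes were lower (median -0.09). The immediate early gene IER5 fell from 12.8 and 16.5 to 8.44 and 9.33 CPM (adjusted p = 0.0376). SLC16A12, a creatine transporter, fell from 14.2 and 8.31 to 3.57 and 4.82 CPM (adjusted p = 0.00165), and GNA14, a G protein subunit, from 23.8 and 4.58 to 5.64 and 3.30 CPM (adjusted p = 0.00614). The unpaired log2 fold change of GNA14 was -0.03 without wild type 1, against -1.67 ± 0.84 with it. Its log2 differences were -2.07 in pair 1 and -0.47 in pair 2. NEFH, a neurofilament gene, rose from 5.51 and 12.1 to 20.2 and 17.9 CPM (adjusted p = 0.000845) and MYCT1 from 0.964 and 2.43 to 5.27 and 5.29 CPM (adjusted p = 0.00250). Without wild type 1 the log2 fold change of NEFH was 0.66, against 1.12 ± 0.39 with it. Of 25 genes of amino acid stress and the unfolded protein response 21 were lower (median -0.17), of which 0 were called by DESeq2 with or without pairing.

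Other genes with large differences varied more within a genotype or had low counts. EEF1D, a translation elongation factor subunit, fell from 7.50 and 11.1 to 2.996 and 3.20 CPM (paired DESeq2 adjusted p = 0.000905) and narrowly missed without pairing (DESeq2 adjusted p = 0.0571). As for FBL and EEF1B2, how its reads were assigned could not be checked. MTCH2, a mitochondrial outer membrane protein, was at 35.9 and 30.8 against 14.4 and 2.12 CPM, and ABCA1, a cholesterol exporter, at 37.7 and 20.9 against 8.53 and 12.2 CPM. Neither passed (paired DESeq2 adjusted p = 0.397 and 0.612). In both genes each homozygous library was below each wild-type one, as for 13.6% of all genes, and this was a condition for naming them. REC8, a meiotic cohesin, was at 0.501 and 1.82 against 5.22 and 2.49 CPM and RIMKLA at 6.05 and 6.34 against 22.3 and 8.42 CPM, with homozygous 1 the highest in each. C4orf47 rose by the paired DESeq2 fit, from 0.983 and 1.97 to 5.86 and 3.08 CPM (adjusted p = 0.0376), as did VAV1, a guanine nucleotide exchange factor of blood cells, from 0.791 and 3.33 to 4.74 and 5.44 CPM (adjusted p = 0.0345). MT1JP, a metallothionein pseudogene outside the list, rose from 1.31 and 4.02 to 5.09 and 7.19 CPM (adjusted p = 0.00954). Without wild type 1 the log2 fold changes of VAV1 and MT1JP were 0.62 and 0.62, against 1.32 ± 0.61 and 1.21 ± 0.66 with it. OAS3, a sensor of double-stranded RNA, was at 2.35 and 2.02 against 1.12 and 0.665 CPM with a log2 fold change of -1.28 ± 0.34 and no adjusted p in the paired fit.

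Over all 45 gene lists, the medians of pair 1 and pair 2 had opposite signs in 20, were above 0 in both pairs in 8 and below 0 in both in 17. By gene type, protein-coding genes made up 76 of the 79 genes that fell by the paired DESeq2 fit and 35 of the 47 that rose, while 82.0% of the table was protein coding. Long noncoding genes made up 3 and 10, and 10.8% of the table. Those table shares are of all 16199 genes, while the paired DESeq2 fit gave an adjusted p to 13686 of them.

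**Figure D5:**
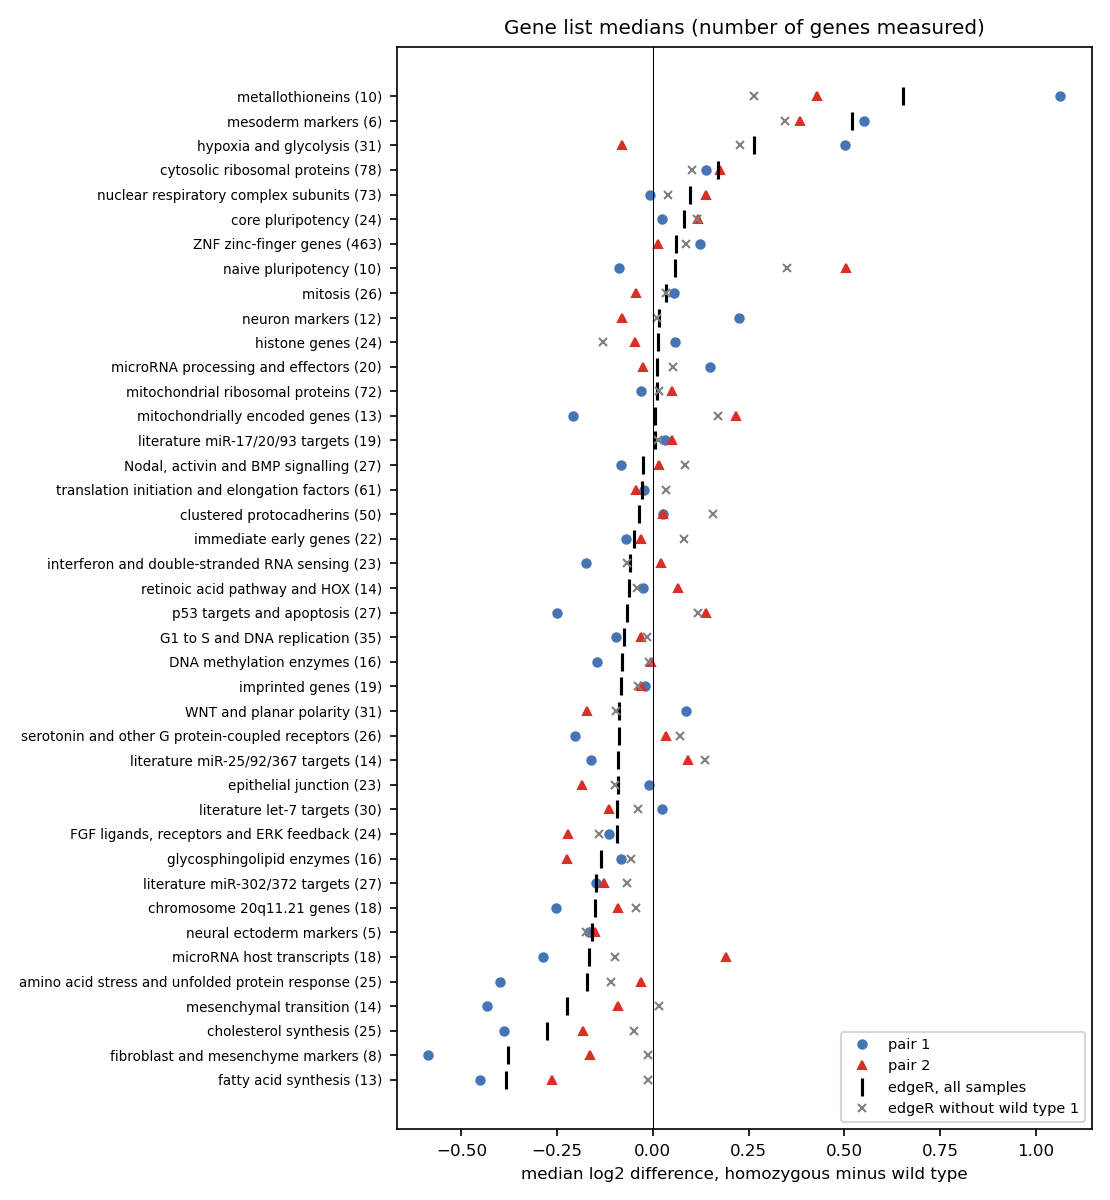
Median log2 difference, homozygous minus wild type, of the 41 gene lists with 5 or more measured genes, in pair 1 (circles), pair 2 (triangles), the edgeR fit (bars) and that fit without wild type 1 (crosses). By the edgeR bars metallothioneins are highest and fatty acid synthesis lowest, an order that the other symbols do not all share, and the crosses lie closer to 0 than the bars for the lipid and fibroblast lists.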

How the data were processed

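RNA-seq had been made from 6 samples, 2 per genotype. Per the labels' protocols, total RNA was extracted with Trizol and libraries were made with the TruSeq RNA Library Prep Kit v2. Per the submitters' processing notes, cutadapt and HISAT2 were used with hg38, while for the counting tool and the annotation the sources used here give no name. The authors deposited whole-number counts per gene, not normalized, for 16199 genes, each above 0.5 CPM in 3 or more samples, so genes of lower expression are not analysed here. Library totals run from 38164848 to 52924532 counts, and read counts carry counting error that is small beside the differences between samples.

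The counts were tested with edgeR 4.0.16 in R 4.3.3 (quasi-likelihood test on all 6 samples, TMM scaling, genotype only, filterByExpr, which removed 0 genes, Benjamini-Hochberg adjustment), with DESeq2 1.42.0 and limma-voom (limma 3.58.1) as alternatives. CPM values use TMM library sizes, and differences within pairs use log2 CPM with a prior count of 2. The hemizygous samples share the estimate of spread. Replicate number was added as a block in paired fits. Samples with the same number deviated together from their genotype means (correlations over genes of 0.741, 0.357 and 0.476), which with 2 numbers rests on a single contrast. The labels do not say what a number marks.

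Genes were matched to GENCODE 29 (15913 of 16199), and 3′ UTRs are the longest annotated one of each gene. The genes and lists were chosen with earlier results of these data known. The text names DICER1, POU5F1, SOX2, NANOG and LIN28A, genes called by edgeR or by DESeq2 without pairing, the 12 largest differences each way among genes with a mean of at least 2 CPM, an unadjusted p under 0.05 with and without the block and no overlap, up to 3 such members per list and direction, and the 10 largest each way of the genes called by DESeq2 with pairing. Not all of these 84 genes are described, and some members of the lists are not reported here. Others (among them ZNF560, SPRY4, ETV4, ETV5, EGR1, the receptor genes, metallothioneins other than MT1H, lipid genes other than ACSS2, SKIL, NODAL, CDKN1A, TBX3 and TAGLN) were chosen after their values were seen. Alternatives were other scalings and filters, fewer samples and each sample left out.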

Additional observations from a re-analysis of the deposited data

How the results depend on the processing

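Pairing moved the counts most. Without pairing edgeR called 0 genes, and 192 genes were higher and 243 lower at an unadjusted p under 0.05. With the replicate number as a block edgeR called 0, with 844 higher and 1098 lower at that level. DESeq2 called 10 genes without the block and 126 with it, and with the block 501 genes were higher and 829 lower at an unadjusted p under 0.05. The edgeR fit with the block on the 4 samples, added after seeing the data, called 4 genes, with 624 higher and 842 lower. Leaving out each sample in turn gave 0 to 1 called genes (ZNF560 without hemizygous 1 and EEF1B2 without wild type 1), 90 to 329 higher and 71 to 389 lower. The lowest counts, 90 and 71, came without homozygous 1, those without wild type 1 were 105 and 124, and the highest came without wild type 2. Without homozygous 2, 147 genes were lower. Other scalings, filters, limma-voom and the 4 samples without the block left 0 calls, between 178 and 218 genes higher and between 201 and 322 lower.

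Over the alternatives 2 values of the 84 named genes changed sign, both of NANOG, whose log2 fold change of 0.0075 became -0.11 without homozygous 2 and -0.20 without wild type 2, and 0.27 at most, without wild type 1. Of 405 list medians under alternatives 39 changed sign. These came from 27 of the 45 lists, and 10 lists changed sign without wild type 1. The cause was not tested. With 2 samples per genotype the fits had 3 residual degrees of freedom (2 with the block). Libraries of the same genotype differed by a chi-square of 60.3 (wild type) and 41.7 (homozygous) per degree of freedom, well above counting noise.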
